A study of Mus musculus with 13 samples.

Results

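The genes described here form a short route of corticosteroid signalling: Hsd11b1, which makes active hormone inside the cell, the receptor genes Nr3c1 and Nr3c2, the receptor-responsive genes Fkbp5 and Sgk1, and the sodium channel subunit gene Scnn1a. They were listed by name, with their pattern in these data already known, as the genes of this route that have a row in either deposited count table. All 6 had a row in both tables, out of 15114 genes in the table of cells and 32285 in the table of spots. Because their pattern guided the choice, their levels are given as a description with no test.

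Corticosterone, the main glucocorticoid of the mouse, enters cells freely and binds the glucocorticoid receptor (Nr3c1) and the mineralocorticoid receptor (Nr3c2), which then act in the nucleus as transcription factors. Hsd11b1 encodes an enzyme that regenerates corticosterone from its inert keto form within the cell, so that the hormone available to the receptors can differ between cells exposed to the same blood. Fkbp5 encodes a co-chaperone that lowers the hormone binding of the glucocorticoid receptor and is itself induced by it. Sgk1 encodes a kinase induced by both receptors, and in the kidney it raises the surface amount of the epithelial sodium channel, whose alpha subunit is encoded by Scnn1a. In mouse cortex Scnn1a is also used as a label of neurons in layer 4.

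The study profiled the retrosplenial cortex, a midline cortical area, of wild-type (WT) mice. One group holds 11 samples of dissociated neurons from B6 animals, taken from acute slices, with cells of several slices combined, and read cell by cell (765 cells; the deposited cell annotation gives 3 animals and anterior, medium and posterior levels). The second holds 2 Visium brain sections of 10 µm stained for NeuN and DAPI, in which a spot collects RNA from a patch of tissue that can hold several cells (1973 spots, sections called S4 and S8). The labels name no treatment, age or sex for either group, no hormone state, and no strain for the sections, and they do not say whether the sections share an animal. No group carries an allele or transgene. The label gives the cell type of the dissociated cells as neuron, and the excitatory neuron markers Slc17a7, Neurod6 and Camk2a together stood between 269 and 804 CPM (counts scaled to one total) in every animal and marker group.

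Samples held 2306470 to 15974543 counts. Cells of animal 1 carried the fewest counts (median 65843), those of animal 2 a median of 132797 and those of animal 3 a median of 185995, so values are given per animal. The sections held medians of 8266 (S4) and 6705 (S8) counts per spot. No cell name occurred more than once. The sections shared 162 spot barcodes, which on Visium slides are printed positions and not cells. Markers of microglia and of endothelial cells had no row in the table of cells.

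The enzyme, 1 responsive kinase and the co-chaperone can be placed beside their promoters, which are shown because the receptors act by binding DNA at their targets. RefSeq promoter windows (GRCm38.p6) were matched for 4 of the 6 genes: Hsd11b1, Nr3c2, Fkbp5 and Sgk1. Each window was kept for the 250 bases before the start. The receptors' half-site AGAACA, or TGTTCT on the other strand, was searched, as was the full palindrome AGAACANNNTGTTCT, which contains both half-sites. The full palindrome was present in 3 of 32851 windows of this length (0.00913%), and a half-site in 16.1% of them. One of the 6 Sgk1 windows was among those 3. Capitals mark half-sites in the windows of Sgk1 (window 5, chr10:21993640-21993889, + strand), Hsd11b1 (chr1:193242361-193242610, - strand) and Fkbp5 (chr17:28486150-28486399, - strand), each written 5′ to 3′ on the gene's strand:
Sgk1: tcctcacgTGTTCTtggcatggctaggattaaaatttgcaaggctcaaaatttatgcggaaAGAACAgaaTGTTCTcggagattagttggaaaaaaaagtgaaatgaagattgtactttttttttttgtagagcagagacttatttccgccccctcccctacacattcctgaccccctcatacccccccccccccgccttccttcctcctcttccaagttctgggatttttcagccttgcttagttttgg
Hsd11b1: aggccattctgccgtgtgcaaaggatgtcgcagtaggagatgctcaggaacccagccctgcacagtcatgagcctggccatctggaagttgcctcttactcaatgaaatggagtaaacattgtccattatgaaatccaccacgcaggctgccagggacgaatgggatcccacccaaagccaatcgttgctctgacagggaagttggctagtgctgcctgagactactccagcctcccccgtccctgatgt
Fkbp5: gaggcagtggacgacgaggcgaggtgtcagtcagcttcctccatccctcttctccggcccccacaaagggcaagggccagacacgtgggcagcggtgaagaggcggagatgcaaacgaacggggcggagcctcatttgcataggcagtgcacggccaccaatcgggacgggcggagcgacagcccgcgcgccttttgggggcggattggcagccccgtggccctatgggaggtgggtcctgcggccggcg
The Sgk1 window shown, chosen after its match was seen, holds 3 half-sites. Of the other 5 Sgk1 windows, windows 1 and 4 hold 1 each and windows 2, 3 and 6 hold 0. The 3 half-sites of the window shown begin 242, 189 and 180 bases before the start, and the last pair, 3 bases apart, makes the palindrome. The windows of Hsd11b1, Fkbp5 and Nr3c2 hold 0 half-sites, which says only that these letters are not in these windows. A match is a description of sequence and not a bound site.

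Cells were grouped by sets of marker genes that contain none of the 6, each group being called by its first markers. Of the 765 cells, 96 stayed ungrouped, and 53 lay within 0.1 of the lead in score needed to enter a group. The groups were Calb1 Ddit4l (183 cells), Bcl11b C1ql2 (138, built from markers of layer 5 extratelencephalic neurons), Tnnc2 Eps8l2 (110), Il1rapl2 Deptor (80), Osr1 Oprk1 (67, layer 6 intratelencephalic), Foxp2 Syt6 (47, layer 6 corticothalamic), Gad1 Gad2 (31, inhibitory) and Ccn2 Nxph4 (13, layer 6b). All 31 cells of the Gad1 Gad2 group also had a count of Slc17a7, so it is called by its rule alone. Counts were summed per animal and group. The 5 groups with at least 10 cells in each of 3 animals (Calb1 Ddit4l, Tnnc2 Eps8l2, Il1rapl2 Deptor, Bcl11b C1ql2 and Osr1 Oprk1) entered 1 fit of 15 sums, and their levels are CPM scaled by the trimmed mean of M-values (TMM). The levels of the other groups are CPM of plain totals. All 6 genes passed the filter on low counts among cells.

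Hsd11b1 was concentrated in the Tnnc2 Eps8l2 group. Its level there was 227 CPM in animal 1, 168 in animal 2 and 147 in animal 3 (181 ± 41.5, SD, n = 3). In the Il1rapl2 Deptor group the 3 animals had 0, 21.1 and 14.6 CPM. In the Bcl11b C1ql2 group they had 2.20, 2.18 and 0.129 CPM, and in the Calb1 Ddit4l and Osr1 Oprk1 groups at most 0.237 CPM. Every animal's level in the Tnnc2 Eps8l2 group lay above every level in the other 4 groups of the fit, while the ranges of each later pair of neighbours in the order overlapped. The mean was 53.4 times the mean of those other groups (3.38 CPM). As background, 7.69% of the 12997 genes tested passed the call rule (adjusted p below 0.05 together with a change of 1 or more on the log2 scale in either direction) in the comparison of this group with the others, and 4.29% passed it upward. Nothing is read from this for Hsd11b1, since the contrast guided its choice.

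Scnn1a followed the same order at its top. In the Tnnc2 Eps8l2 group it stood at 114, 86.8 and 45.2 CPM (82.04 ± 34.7, SD, n = 3). The Il1rapl2 Deptor group came next, with 3.06, 9.94 and 8.99 CPM. These groups did not overlap, and the Il1rapl2 Deptor group in turn lay above the Calb1 Ddit4l group, whose highest animal had 0.850 CPM. In the Bcl11b C1ql2 and Osr1 Oprk1 groups the highest animal had 0.284 and 0.193 CPM, and the last pairs in the order overlapped. The mean in the Tnnc2 Eps8l2 group was 41.9 times that of the other 4 groups (1.96 CPM). Across the 11 samples, each with 7 to 13 cells of the group, Scnn1a ran from 26.01 to 241 CPM with a median of 73.5, and Hsd11b1 from 96.3 to 336 CPM with a median of 163. With sums per sample, for which only samples with at least 10 cells of the group were used, the mean of Scnn1a was 49.7 CPM. In the other groups of the fit the highest single sample had 65.6 CPM of Hsd11b1, below the lowest sample here. Outside the fit, Hsd11b1 stood at 78.6 CPM in the Gad1 Gad2 cells of animal 2 and at 120.5 CPM in the ungrouped cells of animal 1.

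**Figure D1:**
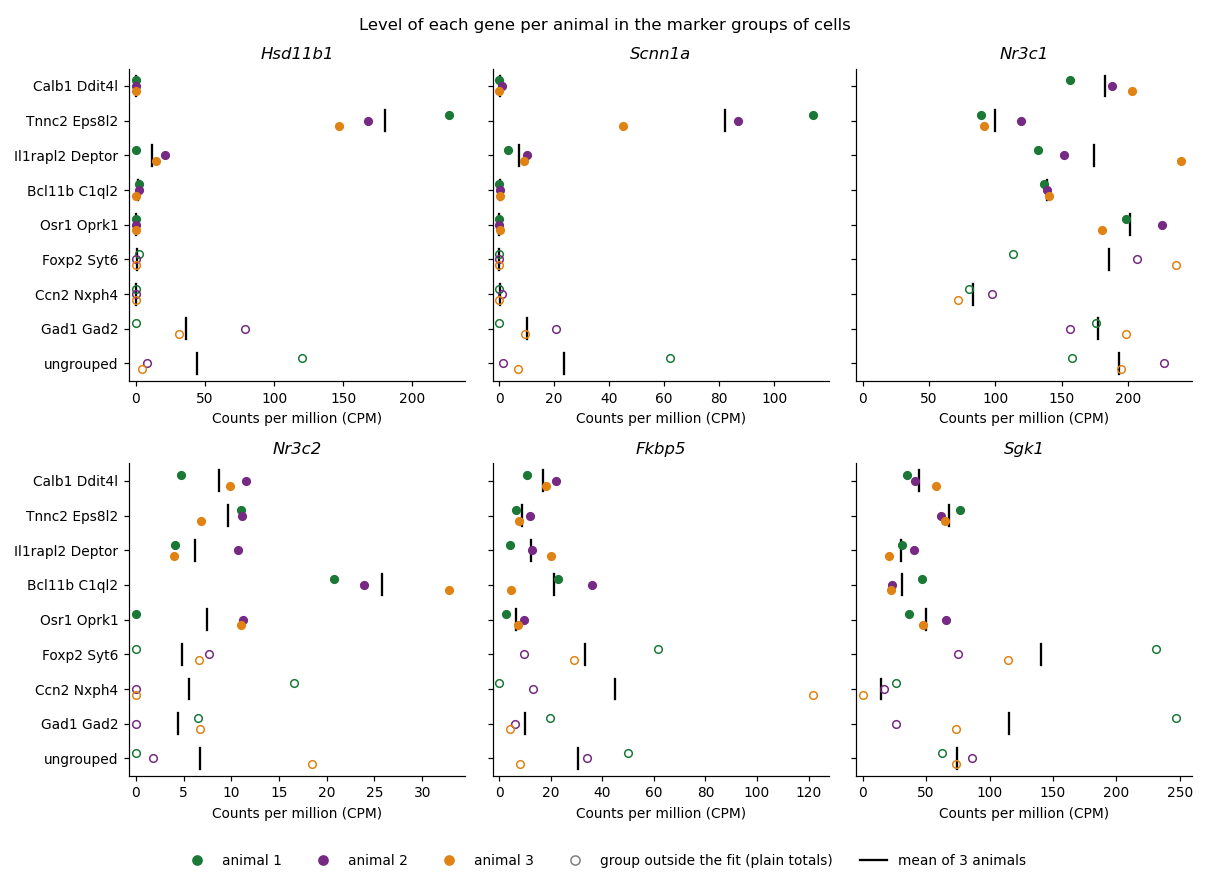
Level of each of the 6 genes (horizontal axis, CPM) in each marker group of cells (rows), 1 point per animal and a bar at the mean of 3 animals; open points are groups outside the fit, scaled by plain totals. Hsd11b1 and Scnn1a stand out in the Tnnc2 Eps8l2 group in all 3 animals, Nr3c1 is spread over every group, and Nr3c2 is highest in the Bcl11b C1ql2 group.

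Most single cells of the Tnnc2 Eps8l2 group carried both transcripts. A count of Hsd11b1 was found in 93 of 110 cells (84.5%, exact 95% interval 76.4 to 90.7%), and of Scnn1a in 107 (97.3%, 92.2 to 99.4%). Both were found in 91 cells, Hsd11b1 alone in 2, Scnn1a alone in 16 and neither in 1. By animal the share with Hsd11b1 was 79.3, 83.8 and 88.6%. The group was also the deepest: its cells had a median total of 194487 counts, and the medians of the other named groups ran from 113143 to 148936. With every cell thinned to 54512 counts and 77 shallower cells left out (7 of this group), Hsd11b1 was still found in 83.5% of the group and Scnn1a in 84.5%. Among other groups of the fit, the unthinned share with Hsd11b1 ran from 1.49% in the Osr1 Oprk1 group to 11.25% in the Il1rapl2 Deptor group. Intervals for shares of cells pool the animals and treat cells as independent, so they do not cover the spread between animals. The counts are also not known to be independent molecules.

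Single cells of the group differed widely in Hsd11b1. The quartiles over its 110 cells were 51.2, 132 and 231 CPM, and the highest cell had 683 CPM. The quartiles of Scnn1a were 27.7, 51.7 and 86.6 CPM, with a highest cell at 439 CPM. Over the 15 sums of the fit the log2 levels of both genes had a Pearson correlation of 0.91. Both genes had their highest mean in the Tnnc2 Eps8l2 group and their next in the Il1rapl2 Deptor group, and they share library and depth. No correlation was computed without these groups.

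Most of the Hsd11b1 counts outside the group, but not most of the Scnn1a counts, sat in cells that clustered with it. Leiden clustering, drawn without the 6 genes, the lists and the marker sets, put all 110 cells into 1 cluster of 122. The other 12 cells of that cluster (4 of the Gad1 Gad2 group, 2 of the Il1rapl2 Deptor group and 6 ungrouped) held 380 of the 552 Hsd11b1 counts found outside the group and 97 of the 252 Scnn1a counts, and all 12 had a count of Scnn1a. The remaining 643 cells held 172 Hsd11b1 counts in 25 cells (3.89%) and 155 Scnn1a counts in 45 cells (6.998%), with 3 cells holding both. Of those 155 Scnn1a counts, 101 lay in 21 cells of the Il1rapl2 Deptor group. One Il1rapl2 Deptor cell in that cluster carried 72 of the 87 Hsd11b1 counts of animal 2 in its group. In the Foxp2 Syt6 group Scnn1a was found in 0 of 47 cells, which allows a share of up to 6.38%, and in the Ccn2 Nxph4 group Hsd11b1 in 0 of 13 cells, which allows up to 23.1%.

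**Figure D2:**
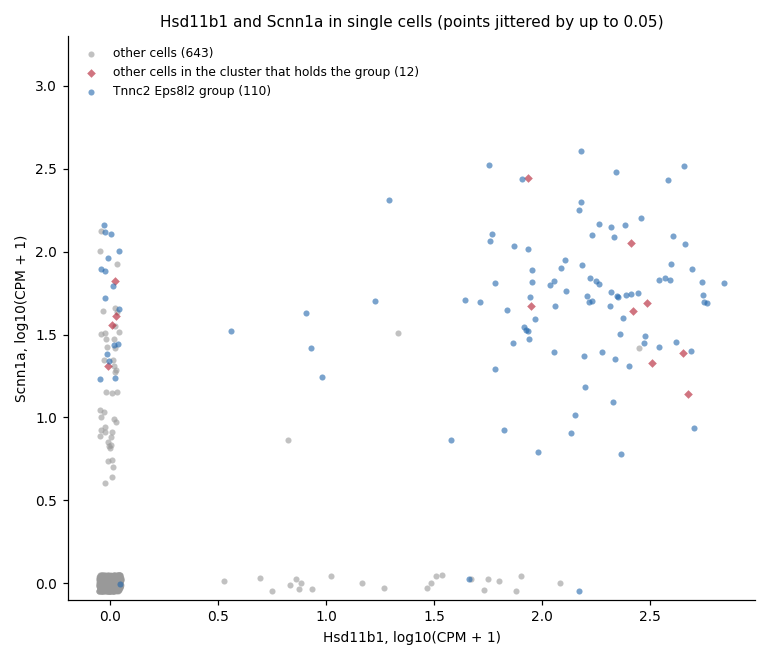
Hsd11b1 (horizontal axis) against Scnn1a (vertical axis), both as log10(CPM + 1), in each of the 765 cells; blue points are the 110 cells of the Tnnc2 Eps8l2 group, red diamonds the 12 other cells of the cluster that holds them and grey points the remaining 643. The 91 cells of the group with both transcripts fill the upper right, where few other cells lie.

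The receptor genes had other distributions. Nr3c1, the glucocorticoid receptor gene, was found in 82.2% of all cells and in every group. Its level was lowest among the 5 groups of the fit in the Tnnc2 Eps8l2 group, at 88.8, 119 and 91.2 CPM (99.7 ± 16.9, SD, n = 3). The next group, Bcl11b C1ql2, had 136, 139 and 140 CPM, so the ranges of these neighbours did not overlap. The Il1rapl2 Deptor group had 132, 152 and 240 CPM, the Calb1 Ddit4l group 156, 188 and 203 CPM, and the Osr1 Oprk1 group 198, 225 and 180 CPM. From the Bcl11b C1ql2 group upward, each pair of neighbours overlapped. The log2 fold change of the Tnnc2 Eps8l2 group against the mean log2 level of the other groups was -0.79 (SE 0.16), below the size that a call needs. The highest group mean was 2.02 times the lowest. Outside the fit, the Ccn2 Nxph4 group was lower still, with 79.7, 97.2 and 72.1 CPM over only 13 cells, while the Foxp2 Syt6 group had 113, 207 and 236 CPM.

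Among the 5 groups of the fit, the one highest in the activating enzyme was thus the lowest in the glucocorticoid receptor. Of the 110 cells of the Tnnc2 Eps8l2 group, 83 (75.5%, 66.3 to 83.2%) had a count of Nr3c1. The other groups of the fit ran from 79.7% (72.0 to 86.1%) in the Bcl11b C1ql2 group to 86.9% in the Calb1 Ddit4l group. By animal the share in the Tnnc2 Eps8l2 group was 55.2, 86.5 and 79.5%, and the low value belonged to the shallow animal 1. With cells thinned to one total, the shares were 69.9% in the Tnnc2 Eps8l2 group, 77.3% in the Bcl11b C1ql2 group and 82.8% in the Calb1 Ddit4l group.

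Nr3c2, the gene of the mineralocorticoid receptor, which binds corticosterone with the higher affinity, was highest in the Bcl11b C1ql2 group. Its level there was 20.8, 23.9 and 32.9 CPM (25.8 ± 6.27, SD, n = 3). Across the 11 samples it ran from 11.03 to 61.6 CPM with a median of 20.7. The highest, sample 15 with 12 cells, held 176 of the 255 counts of animal 3 in this group. The Tnnc2 Eps8l2 group followed with 11.04, 11.2 and 6.79 CPM, and the highest animal of any other group in the fit stood at 11.5 CPM. The top group thus lay apart from the rest, and all later neighbours overlapped. The log2 fold change of the Bcl11b C1ql2 group was 1.77 (SE 0.49). In the comparison of this group with the others, 4.68% of genes were called, 2.85% upward. A count was found in 55 of its 138 cells (39.9%, 31.6 to 48.5%), against 25.5% in the Tnnc2 Eps8l2 group and 8.96% in the Osr1 Oprk1 group, and thinning gave 35.6, 17.5 and 10.7%.

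The balance of the receptor transcripts also differed between groups. Nr3c2 made up 15.6% ± 2.99 of the counts of both receptor genes in the Bcl11b C1ql2 group, with 13.2, 14.7 and 19.0% in the 3 animals. It made up 8.85% ± 2.08 in the Tnnc2 Eps8l2 group and 3.51 to 4.44% on average in the other 3 groups of the fit (SD, n = 3). These shares are of counts, with no correction for gene length. The share in the Tnnc2 Eps8l2 group, at 11.1, 8.56 and 6.93%, also lay above that of the Calb1 Ddit4l, Il1rapl2 Deptor and Osr1 Oprk1 groups in each animal, whose highest value was 6.58%. In 46 of 138 cells of the Bcl11b C1ql2 group both receptors were found, in 64 only Nr3c1 and in 9 only Nr3c2.

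Fkbp5, the receptor-induced co-chaperone, was low, and its animals were spread most widely in the group of the fit with the highest mean. In the Bcl11b C1ql2 group the animals had 23.0, 35.9 and 4.64 CPM (21.2 ± 15.7, SD, n = 3), with a mean of 13.8 CPM without animal 2, and in the Calb1 Ddit4l group 10.7, 22.1 and 17.98 CPM. The Tnnc2 Eps8l2 group had 6.44, 12.04 and 7.72 CPM, and the Osr1 Oprk1 group 2.51, 9.44 and 7.35 CPM. Every pair of neighbours in the order of the 5 groups overlapped. In the Foxp2 Syt6 group the values were 61.7, 9.53 and 29.03 CPM. A count was found in 22 of 110 cells of the Tnnc2 Eps8l2 group (12.98 to 28.7%) and in 34.8% of the Bcl11b C1ql2 group (26.9 to 43.4%).

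Sgk1, the receptor-induced kinase, stood in the Tnnc2 Eps8l2 group at 76.4, 61.5 and 65.2 CPM (67.7 ± 7.75, SD, n = 3), the highest mean of the 5 groups. The Osr1 Oprk1 group had 36.4, 66.06 and 47.2 CPM, which overlapped it. The Calb1 Ddit4l group, at 34.9, 41.2 and 58.2 CPM, the Bcl11b C1ql2 group, at 46.5, 23.3 and 22.2 CPM, and the Il1rapl2 Deptor group, at 30.6, 40.7 and 20.4 CPM, lay below all 3 values of the Tnnc2 Eps8l2 group. The log2 fold change of the Tnnc2 Eps8l2 group was 0.82 (SE 0.27). A count was found in 68.2% of the group's cells (58.6 to 76.7%), against 42.8% in the Bcl11b C1ql2 group, and thinning gave 65.05 and 35.6%.

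Higher Sgk1 was seen outside the fit. The Foxp2 Syt6 group had 231, 75.3 and 115 CPM from 9, 18 and 20 cells. Within each of the 3 animals this was above all 5 groups of the fit (across different scalings), the Tnnc2 Eps8l2 group included. Its lowest value, 75.3 CPM, lay just below the highest of the Tnnc2 Eps8l2 group, 76.4 CPM. The Gad1 Gad2 group had 247, 25.9 and 73.7 CPM from 4, 7 and 20 cells, the first value from only 38 counts. In animal 1, where Sgk1 was highest in the Foxp2 Syt6 group, the mural cell markers Rgs5 and Pdgfrb (2 of 4 with a row) stood at 100.2 CPM, against 18.6 and 4.71 CPM in the other animals, and their part in the Sgk1 level was not tested.

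**Figure D3:**
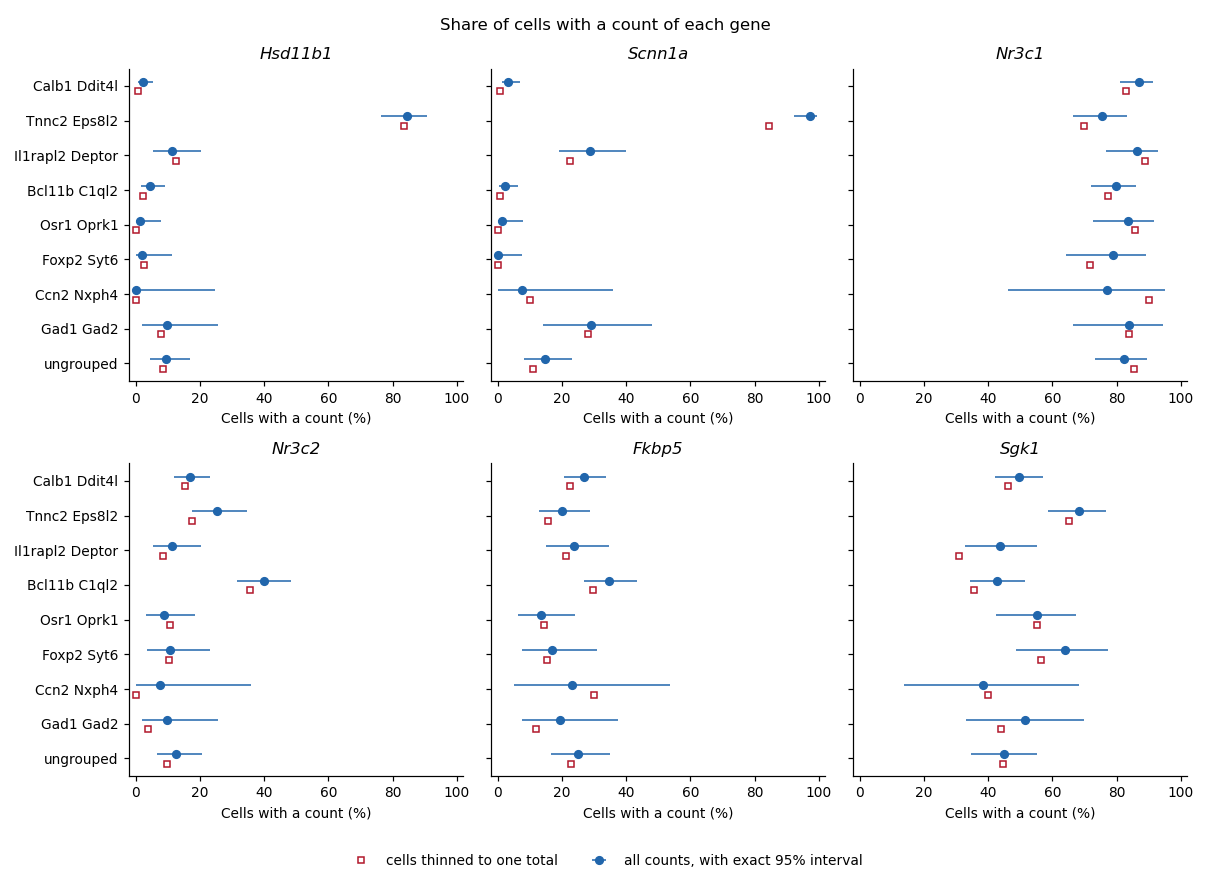
Share of cells with a count of each gene (horizontal axis, percent) in each marker group (rows); blue circles use all counts, with exact 95% intervals, and red squares use cells thinned to 54512 counts. Thinning lowers Scnn1a in the Tnnc2 Eps8l2 group from 97.3% to 84.5% and leaves the groups' order for Hsd11b1 at its top.

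For each gene, the genes most alike in log2 level over the 15 sums were looked up among 10882 candidates, leaving out grouping markers. The genes closest to Hsd11b1 were Iltifb (Pearson r = 0.96), Hbegf (0.95), which encodes a growth factor that binds the EGF receptor, and Arpc1b (0.94), a subunit gene of the actin-branching Arp2/3 complex. Those closest to Scnn1a were Fgd2 (0.96), Plxdc1 (0.95) and again Iltifb (0.94). For Nr3c1 they were Ryr2 (0.89), a calcium release channel gene, Gtdc1 (0.88) and Hpcal4 (0.87). For Nr3c2 they were Mfhas1 (0.92), Kif16b (0.91) and Ftsj2 (0.91), for Fkbp5 Pvrl2 (0.84) and Zfp382 (0.80), and for Sgk1 Rgs14 (0.87), Golim4 (0.83) and Dbx2 (0.82). The 15 sums come from 3 animals and 5 groups and are not independent, so the values only rank the candidates.

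Lists of the surrounding pathway (98 genes, 76 with a row among cells and 72 tested) were read in the same fit with edgeR's quasi-likelihood test and Benjamini-Hochberg adjustment over all 12997 genes. In the Tnnc2 Eps8l2 group 5 list genes were called higher and 1 lower, 8.33% of those tested against 7.69% of all genes. The shares were 5.56% against 3.78% in the Calb1 Ddit4l group, 5.56% against 4.68% in the Bcl11b C1ql2 group, 8.33% against 5.39% in the Osr1 Oprk1 group and 1.39% against 1.76% in the Il1rapl2 Deptor group. Over all lists together, the shares were thus near the background in the groups richest in the enzyme and in the mineralocorticoid receptor. The calls were uneven between lists. Of 16 corticosteroid-responsive genes tested, 3 were called higher and 1 lower in the Tnnc2 Eps8l2 group, and 2 higher and 1 lower in the Bcl11b C1ql2 group. The steroid synthesis, chaperone and coregulator lists had 0 calls in the Tnnc2 Eps8l2 group. Differences between lists were not tested.

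Of the sodium channel genes and their regulators and relatives (20 tested), 2 were called higher and 0 lower in the Tnnc2 Eps8l2 group, with a median log2 fold change of 0.34 against 0.03 over all genes. Scnn1g, the gamma subunit gene of the same channel, had 161 counts there and 8 in all other groups of the fit. Its level was 6.90 ± 6.70 CPM (SD, n = 3) against 0.123 CPM, higher in 3 of 3 animals (adjusted p = 0.00298), and the call was lost without animal 2 and with DESeq2. Scnn1g had no value, and so no call, without animal 3, with sums per sample and with Leiden clusters. Accn2, the older symbol of the acid-sensing channel gene Asic1 of the same superfamily, stood at 260.1 ± 60.5 CPM against 60.07 CPM (log2 fold change 2.29, SE 0.20, adjusted p = 1.84e-06, higher in 3 of 3 animals). In the Osr1 Oprk1 group Accn2 was called lower, at 27.2 ± 12.5 CPM (adjusted p = 0.000319), a call lost with Leiden clusters in place of the marker groups. Accn4 (Asic4) was called there from 32 counts against 0 in the other groups (adjusted p = 0.0142), a call lost without animal 1, without animal 3 and with DESeq2. It had no value without animal 2, with sums per sample and with Leiden clusters.

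Corticosteroid-responsive genes (16 tested) went both ways in the group richest in Hsd11b1, with 3 called higher and 1 lower and a median log2 fold change of 0.44 against 0.03 over all genes. Of all genes, 7.69% were called in this comparison. Tsc22d3, which encodes the glucocorticoid-induced leucine zipper, stood at 153 ± 22.7 CPM in the Tnnc2 Eps8l2 group against 83.01 CPM (log2 fold change 1.13, SE 0.21, adjusted p = 0.00177, higher in 3 of 3 animals), and its call was lost without animal 1 and with sums per sample. Dusp1, a phosphatase gene induced by glucocorticoids and by stress, stood at 152 ± 58.0 against 74.4 CPM (log2 fold change 1.15, SE 0.29, adjusted p = 0.0143), a call lost on leaving out any of the 3 animals, without the animal block and with Leiden clusters. The dissociation-responsive genes Fos, Jun, Junb and Egr1 together stood between 341 and 696 CPM in this group and between 348 and 1266 CPM in the other groups of the fit, and their part in these levels was not tested. Bcl6, a transcriptional repressor gene, stood at 48.5 ± 4.76 against 5.38 CPM (adjusted p = 0.0005, higher in 3 of 3 animals), a call lost with sums per sample. Cdkn1a, a cell cycle inhibitor gene, was lower, at 2.78 ± 1.59 against 84.7 CPM (log2 fold change -4.32, SE 0.41, adjusted p = 3.91e-06, lower in 3 of 3 animals).

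The same genes were called in other groups with other signs. Tsc22d3 was lower in the Osr1 Oprk1 group, at 28.0 ± 0.792 CPM against 114 CPM (log2 fold change -2.03, SE 0.27, adjusted p = 0.000185, lower in 3 of 3 animals). Cdkn1a was highest there, at 175 ± 43.2 CPM (log2 fold change 3.19, SE 0.25, adjusted p = 2.02e-06), and it was also called higher in the Calb1 Ddit4l group (log2 fold change 1.94, above the mean of the others in 2 of 3 animals) and the Il1rapl2 Deptor group (1.26, above the mean of the others in 1 of 3 animals, lost without animal 1 or animal 3). In the Il1rapl2 Deptor group its mean of 63.2 CPM lay below the 69.6 CPM mean of the other groups, because the fold change averages log2 levels. Bcl6 had 0 counts in the Osr1 Oprk1 group, which allows up to 0.307 CPM over the group (adjusted p = 0.0179, lost on leaving out any animal). It was called higher in the Bcl11b C1ql2 group, where its mean of 16.1 CPM compared with 13.5 CPM in the others (adjusted p = 0.0304, higher in 2 of 3 animals, lost without animal 1 or animal 3, with DESeq2 and with sums per sample).

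In the group richest in Nr3c2, Mt1, a metallothionein gene that glucocorticoids and metals induce, stood at 125 ± 38.8 CPM against 46.8 CPM (log2 fold change 1.55, SE 0.24, adjusted p = 0.000772, higher in 3 of 3 animals). Mt1 was called lower in the Calb1 Ddit4l group (27.5 ± 10.0 CPM, adjusted p = 0.0485), a call lost on leaving out any animal, without the animal block, with sums per sample and with no filter on low counts. Cdkn1a was lower in the Bcl11b C1ql2 group, at 9.86 ± 2.98 CPM against 82.9 CPM (adjusted p = 0.00118, lost without animal 1). Errfi1 was higher in the Osr1 Oprk1 group, at 57.3 ± 6.21 CPM against 23.6 CPM (adjusted p = 0.00774, lost on leaving out any animal and with Leiden clusters). None of these lists contains Fkbp5 or Sgk1, which are described above.

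The lists of genes upstream of the receptors or acting with them are short. Of all genes tested, 1.76 to 7.69% were called in a group, so nothing is read from the few calls in these lists. Of the steroid synthesis and metabolism genes (11 tested), the single call over the 5 groups was Por, the electron donor of steroid-converting cytochromes P450, lower in the Bcl11b C1ql2 group at 30.7 ± 10.97 CPM against 67.8 CPM (log2 fold change -1.10, SE 0.25, adjusted p = 0.0131). That call was lost on leaving out any animal and with sums per sample. Of 15 receptor chaperone genes 1 was called, Dnajb1, higher in the Calb1 Ddit4l group at 161 ± 63.4 CPM against 77.03 CPM (adjusted p = 0.0412, lost without animal 2, without animal 3, without the animal block, with sums per sample and with a lead of 0 or 0.5 between marker sets). Of 10 coregulator genes 0 were called in any of the 5 groups by edgeR and 0 by DESeq2, with 0 to 2 at an unadjusted p under 0.05.

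Along the anterior to posterior axis, values within the Tnnc2 Eps8l2 group were compared by animal in sums of at least 5 cells. Animal 2 gave only 1 posterior cell of the group (0.917% of its 109 posterior cells), so posterior values come from animals 1 and 3. Hsd11b1 was 298 CPM anterior and 222 posterior in animal 1, and 84.0 and 120 CPM in animal 3, so the animals went opposite ways. At the medium level it was 154, 109 and 201 CPM in animals 1 to 3. Scnn1a was 145 anterior and 97.1 posterior in animal 1, and 48.4 and 38.1 in animal 3, lower at the posterior level in both. Sgk1 went opposite ways, from 62.4 to 89.6 CPM in animal 1 and from 91.1 to 76.3 CPM in animal 3. Nr3c2 had its highest value of each animal at the medium level, at 27.6, 19.07 and 9.12 CPM, against 9.36, 7.86 and 4.98 CPM at the anterior level. In this group's comparison of posterior with anterior cells, 0 of 11275 genes were called by edgeR (0%), with 418 at an unadjusted p under 0.05 and 44 called by DESeq2.

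In the Il1rapl2 Deptor group, 3 of the genes had less in posterior than in anterior cells of each of the 3 animals, but the cells of the 2 levels were split differently between Leiden clusters. The second-largest cluster of the group held 13 of its 34 anterior cells (6 of 7 in animal 1) and 3 of its 27 posterior cells. Nr3c2 stood at 5.76, 18.9 and 8.57 CPM in anterior cells (7, 12 and 15 cells) and at 0 counts in the 27 posterior cells of the 3 animals. Fkbp5 stood at 5.76, 13.8 and 27.6 CPM anterior and at 0, 3.79 and 2.84 CPM posterior. Sgk1 stood at 40.3, 50.2 and 22.5 CPM anterior and at 7.43, 28.4 and 19.3 CPM posterior. Of the 7 anterior cells with Nr3c2, 6 lay in that cluster. Outside it, Sgk1 stood at 20.6, 25.9 and 18.5 CPM anterior and at 9.40, 30.9 and 18.4 CPM posterior, so it was no longer lower at the posterior level in animal 2. Fkbp5 outside it stood at 0, 16.1 and 34.2 CPM anterior and at 0, 4.12 and 3.06 CPM posterior. Each rests on few cells, and these are descriptions. Over all genes of that group, 0 of 10509 were called by edgeR (0%), with 406 at an unadjusted p under 0.05, and 105 by DESeq2. The share called was 0.0204% in the Osr1 Oprk1 group and 0% in the Calb1 Ddit4l group.

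Over all cells of an animal, regardless of group, the level of Hsd11b1 is given beside the share of cells of the Tnnc2 Eps8l2 group. In animal 2 it was 52.6 CPM in anterior cells, of which 23.6% were of the group, 30.2 CPM in medium cells (12.4%) and 6.97 CPM in posterior cells (0.917%). In animal 3 it was 12.5, 59.5 and 25.5 CPM, with 8.57, 18.3 and 16.2% of cells in the group. In animal 1 it was 53.5, 45.3 and 53.2 CPM, with 15.6, 25.7 and 18.1%. Nr3c2 over all cells was higher at the posterior than at the anterior level in 3 of 3 animals (13.6 against 5.54, 13.5 against 13.1 and 16.5 against 8.12 CPM), though hardly so in animal 2. Posterior cells as a whole also held less Sgk1 than anterior cells in each of the 3 animals (51.4 against 59.3, 32.8 against 55.1 and 39.5 against 62.4 CPM). The Bcl11b C1ql2 group, where Nr3c2 is highest, made up 52.8, 37.6 and 22.5% of posterior cells and 4.44, 11.3 and 2.86% of anterior cells. The choice of cells and the levels in the tissue cannot be told apart here.

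**Figure D4:**
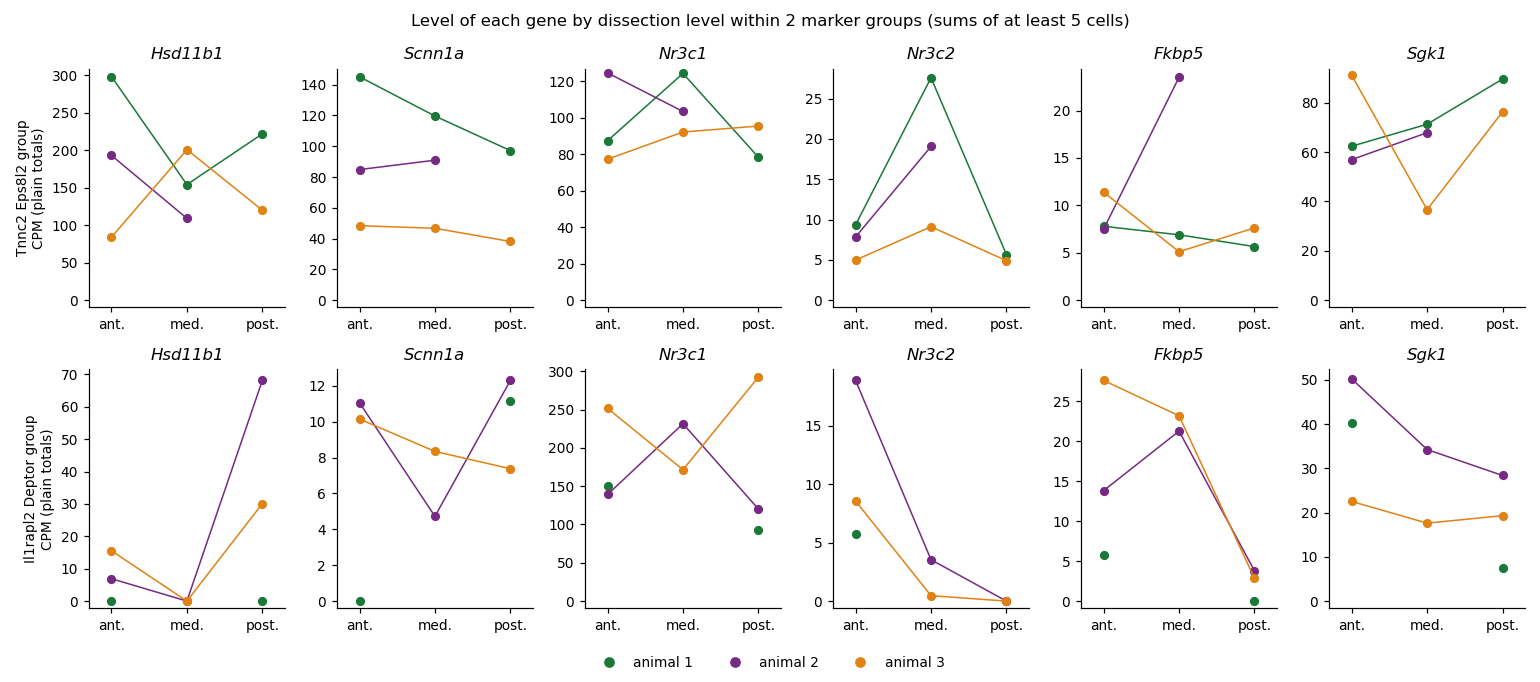
Level of each gene (vertical axis, CPM of plain totals) at the anterior, medium and posterior dissection levels (horizontal axis) in the Tnnc2 Eps8l2 group (upper row) and the Il1rapl2 Deptor group (lower row); points are sums of at least 5 cells of 1 animal and lines join an animal's levels. In the lower row Nr3c2, Fkbp5 and Sgk1 are lower at the posterior than at the anterior level in all 3 animals.

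In the Visium sections all 6 genes were seen, 5 of them passed the filter on low counts, and Scnn1a did not. Over whole sections Hsd11b1 stood at 32.6 CPM in S4 (275 counts, exact Poisson 95% interval 28.9 to 36.7) and 27.4 CPM in S8 (175 counts, 23.5 to 31.8). Scnn1a had only 24 and 27 counts. Nr3c1 stood at 76.2 and 67.9 CPM, Nr3c2 at 22.2 and 21.8, Fkbp5 at 19.9 and 17.2, and Sgk1 at 71.1 and 59.3 CPM. Spots were grouped by marker sets within each section, 555 of the 1973 spots stayed ungrouped, and 405 lay within 0.1 of the lead. In sums of spots, fewer cells of a type and less RNA per cell cannot be told apart. Intervals for spots are exact Poisson 95% intervals and cover counting error only.

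The set of spot markers that shares Tnnc2 and Eps8l2 with the group of cells is headed by Tshz2 and Slc17a6. In S4 its 54 spots held 35 counts of Hsd11b1, or 84.1 CPM (58.6 to 117), the highest of the groups of spots described. In S8 its 58 spots held 9 counts, or 24.3 CPM (11.1 to 46.1), and the highest level was 57.2 CPM (40.7 to 78.2) in the Etv1 Fezf2 group. The intervals of the sections did not overlap in the Tshz2 Slc17a6 group. The lowest levels in S4 were 11.06 CPM (3.59 to 25.8) in the Ccn2 Nxph4 group and 15.4 CPM in the Trh Dlk1 group, and the lowest in S8 were 12.2 CPM in the Foxp2 Syt6 group and 14.7 CPM in the Trh Dlk1 group. Hsd11b1 was also counted in the Myoc Dcn group at 26.9 and 36.5 CPM. For this set of spots, 0.444% of 9467 genes were called, and 0.317% upward.

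Scnn1a was found in 48 of 1973 spots. Its counts lay in the Tshz2 Slc17a6 (3 and 4 counts), Rorb Whrn (7 and 2), Etv1 Fezf2 (4 and 7) and Cux2 Lamp5 (2 and 5) groups, with 1 count in the Foxp2 Syt6 group of S4, 1 in the Myoc Dcn group of S8, and 7 and 8 in ungrouped spots. The Ccn2 Nxph4 and Trh Dlk1 groups had 0 counts in both sections, which allows up to 5.14 CPM in the Trh Dlk1 group of S4 and 10.8 CPM in the Ccn2 Nxph4 group of S8. No order among the groups can be read at this depth, since the intervals of the groups with counts overlap.

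Nr3c1 was spread over the sections. The groups described ran from 65.1 to 120 CPM in S4 and from 54.7 to 86.3 CPM in S8. The Foxp2 Syt6 group was the highest in S4, at 120 CPM (95.2 to 148), and the lowest in S8, at 54.7 CPM (36.04 to 79.6), with intervals that did not overlap. Nr3c2 was highest in the Ccn2 Nxph4 group in S4, at 28.8 CPM (15.3 to 49.2), and in the Trh Dlk1 group in S8, at 40.3 CPM (25.3 to 61.01), where S4 had 25.7 CPM. Its interval in the top group overlapped that of the Etv1 Fezf2 group in each section.

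Among the groups of spots described, Sgk1 had the same groups at the ends of its order in both sections. Of the groups described, the Tshz2 Slc17a6 group was highest, at 88.9 CPM in S4 (62.6 to 123) and 91.6 CPM in S8 (63.5 to 128). The Trh Dlk1 group was lowest in both, at 41.1 CPM (26.4 to 61.2) and 29.3 CPM (16.8 to 47.6), below the interval of the Tshz2 Slc17a6 group in each section. These groups also differed in 4 oligodendrocyte markers, which together stood at 1901 to 1977 CPM in the Tshz2 Slc17a6 group and 642 to 1125 CPM in the Trh Dlk1 group. The Foxp2 Syt6 group had more, at 2494 to 2536 CPM. The part of these markers in the Sgk1 levels was not tested. Fkbp5 ran from 13.01 to 37.6 CPM in S4 and from 5.39 to 38.5 CPM in S8, with the Ccn2 Nxph4 group highest in S4 and the Trh Dlk1 group highest in S8.

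**Figure D5:**
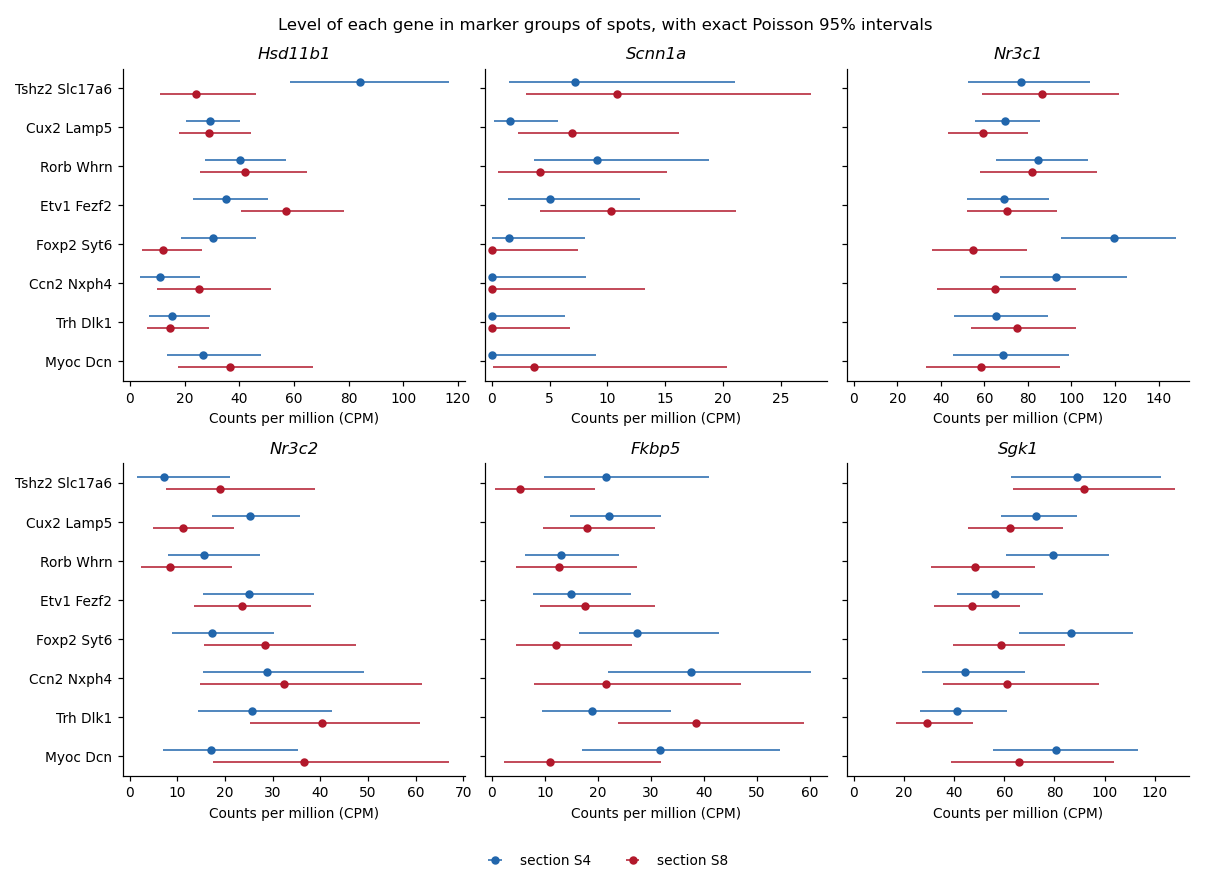
Level of each gene (horizontal axis, CPM) in 8 marker groups of spots (rows) in section S4 (blue) and section S8 (red); points are sums over the spots of a group and bars exact Poisson 95% intervals. Hsd11b1 is highest in the Tshz2 Slc17a6 group in S4 but not in S8, and Sgk1 is lowest in the Trh Dlk1 group in both.

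Of the list genes, 68 were tested in the sums of spots. Over all genes, 1.17% were called in the Cux2 Lamp5 group, 0.729% in the Rorb Whrn group, 0.465% in the Etv1 Fezf2 group, 0.465% in the Foxp2 Syt6 group, 0.306% in the Ccn2 Nxph4 group, 3.81% in the Trh Dlk1 group and 0.792% in the Myoc Dcn group. Bcl6 was called higher in the Etv1 Fezf2 group, at 46.4 CPM (40.02 and 52.8 in the sections) against 19.996 CPM (edgeR adjusted p = 0.000106). Gjb6, a gap junction gene of astrocytes, was called lower in the Foxp2 Syt6 group, at 22.8 against 52.8 CPM (adjusted p = 0.00406). Hspa1b, a heat shock gene, was called higher in the Cux2 Lamp5 group (25.4 against 12.98 CPM, adjusted p = 0.00808) and lower in the Rorb Whrn group (3.25 against 15.7 CPM, adjusted p = 0.0345). DESeq2 called none of these 4, nor any other list gene, and the Gjb6 call and both Hspa1b calls were also lost with no replicate block and with a lead of 0. In the other 4 groups described, the one sharing Tnnc2 and Eps8l2 included, 0 list genes were called by either tool, with 11 to 19 at an unadjusted p under 0.05. With 2 sections, these tests rest on the spread between a single pair.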

How the data were processed

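Single cells of mouse retrosplenial cortex and spots of 2 Visium sections were analysed from whole-number counts per gene, deposited by the authors as 1 table of cells and 1 of spots. The submitters' processing notes name NCBIM37, mm10, Seurat and Space Ranger, with no version. The aligner and the counting of the cells are not given in the sources used here, nor whether those counts are reads or molecules. Animal and dissection level come from the deposited cell annotation.

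A cell or spot (within its section) joined the marker set with the highest mean z-score of ln(counts per 10000 + 1), if that score was above 0 and led the next by at least 0.25. Counts were summed per animal and group (at least 10 cells in each of 3 animals; at least 10 spots per section; at least 5 cells by dissection level). Sums were fitted with edgeR 4.0.16 (quasi-likelihood test, TMM, low-count filter, animal or section as a block) in R 4.3.3, and p-values were adjusted by Benjamini-Hochberg over all genes tested. A call needed an adjusted p below 0.05 together with a change of 1 or more on the log2 scale. Fold changes set a group against the mean log2 level of the other groups. The block pairs sums of the same animal or section. DESeq2 1.42.0 was an alternative, as were other leads, filters, scalings, sums per sample, Leiden clusters (scanpy 1.11.5, Python 3.11.15; 114 genes held out) and leaving out an animal. The fit of cell groups, the fit of spots and the dissection level fit of the Tnnc2 Eps8l2 group were run on simulated data. Recovery of known changes was required of the cell group and spot fits only, and a limit on false calls of all.

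The members and lists were chosen with earlier results of these data known, so members have fold changes and no p. Named genes are the members, every list gene called and the 3 genes most alike each member; 1 called list gene, 1 gene alike a member and 1 group of spots are not reported here. No doublet caller was run. Nothing but the annotation says that the animals are separate.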

Additional observations from a re-analysis of the deposited data

Results flagged for a closer look

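Among 12 pairs of gene and group, 3 had a highest sample far from the others. The pairs came only from the Il1rapl2 Deptor and Osr1 Oprk1 groups, with 9 samples each. Groups with 11 samples, the Tnnc2 Eps8l2 group among them, were not compared in this way. Hsd11b1 in the Il1rapl2 Deptor group stood at 65.6 CPM in sample 13, the highest of 9 samples, and 72 counts of the group came from 1 cell. Hsd11b1 in the Osr1 Oprk1 group stood at 0.656 CPM in sample 15, from 1 count, with no count in the other samples. Scnn1a in the Osr1 Oprk1 group also stood at 0.656 CPM in sample 15, again from 1 count and with none in the other samples. A sample that alone holds a count always stands apart by this rule, so the pairs in the Osr1 Oprk1 group carry no weight.

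Counts of both genes also appeared in cells outside the fit, above what a count of 0 would allow. Hsd11b1 had 189 counts in the Gad1 Gad2 cells, 188 of them in the 4 cells that shared a Leiden cluster with the Tnnc2 Eps8l2 group, and 100 in 1 cell. Scnn1a had 54 counts in the Gad1 Gad2 cells, 37 of them in those 4 cells. In the ungrouped cells Hsd11b1 had 135 counts, 120 of them in 6 cells of that cluster. Scnn1a had 77 counts in the ungrouped cells, 54 of them in the same 6 cells.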

How the results depend on the processing

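No result reversed its direction. In the group where each gene is highest, sums per sample gave 49.7 CPM for Scnn1a (main 82.04), and Fkbp5 stood at 13.8 CPM without animal 2 (main 21.2). All other alternatives moved these levels by less than 1.5 times. Thinning cells to one total moved the share with Scnn1a in the Tnnc2 Eps8l2 group to 84.5%, with Nr3c1 in the Calb1 Ddit4l group to 82.8% and with Nr3c2 in the Bcl11b C1ql2 group to 35.6%. With a lead of 0.5, Hsd11b1 in the Tshz2 Slc17a6 spots of S4 stood at 123 CPM.

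Counts of called genes moved more. Among cells, sums per sample called 901 genes in the Calb1 Ddit4l group (main 491) and 630 in the Tnnc2 Eps8l2 group (main 999), and DESeq2 called 388 in the Il1rapl2 Deptor group (main 229). Leaving out an animal gave 268 to 326 genes for Calb1 Ddit4l, 618 to 719 for Tnnc2 Eps8l2, 92 to 116 for Il1rapl2 Deptor, 285 to 379 for Bcl11b C1ql2 (main 608) and 351 to 498 for Osr1 Oprk1 (main 701). Such fits have fewer samples. Of the 21 list calls, 10, 7 and 9 were lost without animal 1, 2 and 3. In addition, Accn4 had no value without animal 2 and Scnn1g none without animal 3.

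Between posterior and anterior cells, DESeq2 called 28 (Calb1 Ddit4l), 44 (Tnnc2 Eps8l2), 105 (Il1rapl2 Deptor) and 60 genes (Osr1 Oprk1, main 2). Without the filter the counts were 1 for Tnnc2 Eps8l2, 13 for Il1rapl2 Deptor and 8 for Osr1 Oprk1. For Il1rapl2 Deptor, sums of at least 10 cells gave 10 and leaving out an animal 0 to 26. For Osr1 Oprk1, the fit with no replicate block and the fit without animal 1 gave 0.

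Among spots, DESeq2 called 17 (Tshz2 Slc17a6, main 42), 43 (Cux2 Lamp5, main 111), 27 (Rorb Whrn, main 69), 11 (Etv1 Fezf2, main 44), 26 (Foxp2 Syt6, main 44), 18 (Ccn2 Nxph4, main 29), 205 (Trh Dlk1, main 361) and 37 genes (Myoc Dcn, main 75). With no replicate block the counts were 20 (Tshz2 Slc17a6), 71 (Cux2 Lamp5), 40 (Rorb Whrn), 23 (Etv1 Fezf2), 28 (Foxp2 Syt6), 18 (Ccn2 Nxph4) and 33 (Myoc Dcn). A lead of 0 gave 37 for Rorb Whrn, and a lead of 0.5 gave 109 for it and 74 for Foxp2 Syt6. The causes were not tested.

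Alternatives that left too few sums were not run: Leiden clusters for Il1rapl2 Deptor and Bcl11b C1ql2, sums per sample for Il1rapl2 Deptor and Osr1 Oprk1, a lead of 0.5 for Il1rapl2 Deptor, and some fits by dissection level without an animal or with at least 10 cells. Depth limits Scnn1a in spots most, with 24 and 27 counts.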
